A study of Mus musculus with 145 samples.

Results

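Germline-derived pluripotent stem cells (gPSCs) of the line gPSC-1 were compared between passage 1, gPSC-1 (p1), and passage 15, gPSC-1 (p15). The cells were chosen by library, and every cell of the 2 deposited libraries was kept, 48 cells of p1 and 32 cells of p15 among 4464 annotated cells of the whole series. The comparison shows how the transcriptome differed between early and extended culture in pluripotency medium. The labels give the medium and the passage, and the line name gPSC-1 is that of the study. Whether both libraries came from 1 clone is not given in the sources used here. Both libraries came from spermatogonial stem cells (SSCs) of male B6D2F1 mice in the first week after birth, bred from C57BL/6 females and DBA/2 males (DBA in the labels) and carrying an *Oct4*-EGFP transgene. The SSCs had been reprogrammed without added chemicals (the treatment is labelled none) and the resulting line was grown on fibroblast feeders in N2B27 with 2iL, which is an inhibitor of MEK, an inhibitor of GSK3 and LIF. The library of SSCs at day 0 of reprogramming (95 cells) and that of mouse embryonic stem cells (ESCs, 45 cells) are given beside them as reference levels. Both were of the same cross, the SSCs being kept in SSC medium and the ESCs in N2B27 with 2iL on feeders. There was 1 library per passage, so passage, culture and library cannot be told apart. No test was made, cells are not replicates, and the 95% intervals given cover counting error only.

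In 2iL, mouse pluripotent cells are held in the naive state, in which *Nanog*, *Esrrb*, *Klf4* and *Tfcp2l1* encode transcription factors that maintain self-renewal. Imprinted genes are expressed from the allele of 1 parent, because DNA methylation laid down in the egg or the sperm marks the control region. In the male germline the maternal marks are erased and paternal ones are set, so a line from SSCs starts with both copies in a paternal-like state. In cultured pluripotent cells imprints are known to be labile. *Peg3* encodes a zinc finger protein made from the paternal copy, and *Kcnq1ot1* is a long antisense RNA that silences its neighbours on the paternal copy.

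The p1 library held 14035664 UMIs (unique molecular identifiers, each counting 1 captured molecule), with 18598 to 620457 per cell and a median of 283965. The p15 library held 10833720, with 20268 to 597574 and a median of 356973. With every cell reduced to 100000 UMIs, 6 cells of p1 and 2 of p15 being too shallow, a p1 cell had a median of 6767 genes (5454 to 7775) and a p15 cell 7642 (6970 to 9151). Without that reduction the medians were 7550 and 9350. All 80 cells carried the same batch label, and the day 0 and ESC libraries carried another. The cell type given by the labels was checked on its markers. *Nanog* and *Sox2* had UMIs in every cell, while the SSC receptor *Gfra1* and the feeder collagens *Col1a2* and *Col3a1* were at 0 in all 80. Other germline genes were not absent, *Dazl* having UMIs in 23 of 48 p1 cells and 29 of 32 p15 cells and *Dmrt1* in 10 and 22. At 100000 UMIs per cell these were 18 of 42 and 25 of 30 cells for *Dazl* and 6 of 42 and 10 of 30 for *Dmrt1*. Of the 18 feeder markers measured, *Col1a1* and *Ctgf* reached 10 CPM (UMIs of a gene per 1000000 UMIs of the cell or library), and the summed level per cell was 0 to 172 CPM in p1 with a median of 8.18 and 0 to 92.5 in p15 with a median of 21.3. *Col1a1*, a collagen of fibroblasts, was higher in p15 (2.71 and 12 CPM, a log2 ratio of p15 over p1 of 2.15) and had UMIs in 5 of 48 and 17 of 32 cells, or 3 of 42 and 10 of 30 at 100000 UMIs per cell. *Ctgf* went the other way, at -0.68, and the pooled sum of the list was 34.1 CPM in p1 and 31.9 CPM in p15. The part of feeder RNA in other ratios was not tested.

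Over 9263 genes with at least 10 CPM in either library after pooling its cells, 2010 (21.7%) were at least 2-fold higher in p15 and 440 (4.75%) at least 2-fold lower. These 2-fold limits define higher and lower below. The median log2 ratio of p15 over p1 was 0.16, and 510 genes were at least 4-fold higher against 110 at least 4-fold lower. The excess of higher genes depended on the scaling, since 70.9% of the genes past 2-fold were higher with TMM factors and 69.0% with DESeq2 size factors, against 82.0% with library totals. The median ratio of all genes was then -0.01 and -0.04. A difference by transcript length ran through the whole library. Genes with 183 to 2755 exonic bases had a median log2 ratio of -0.21 and those with 6956 or more had 0.69. The p15 library showed the same order against ESCs (-0.24 and 0.58), whereas p1 against ESCs did not (-0.02 and -0.07). Ratios also fell with level, from a median of 0.65 below a mean of 20 CPM to -0.31 at 500 CPM and above. Set against genes of the same length and level class, 1125 genes were at least 2-fold above and 796 at least 2-fold below the median of their class. Values matched for length and level are given beside the median of each gene group with at least 7 members, and the part of length and level in each ratio was not tested.

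**Figure D1:**
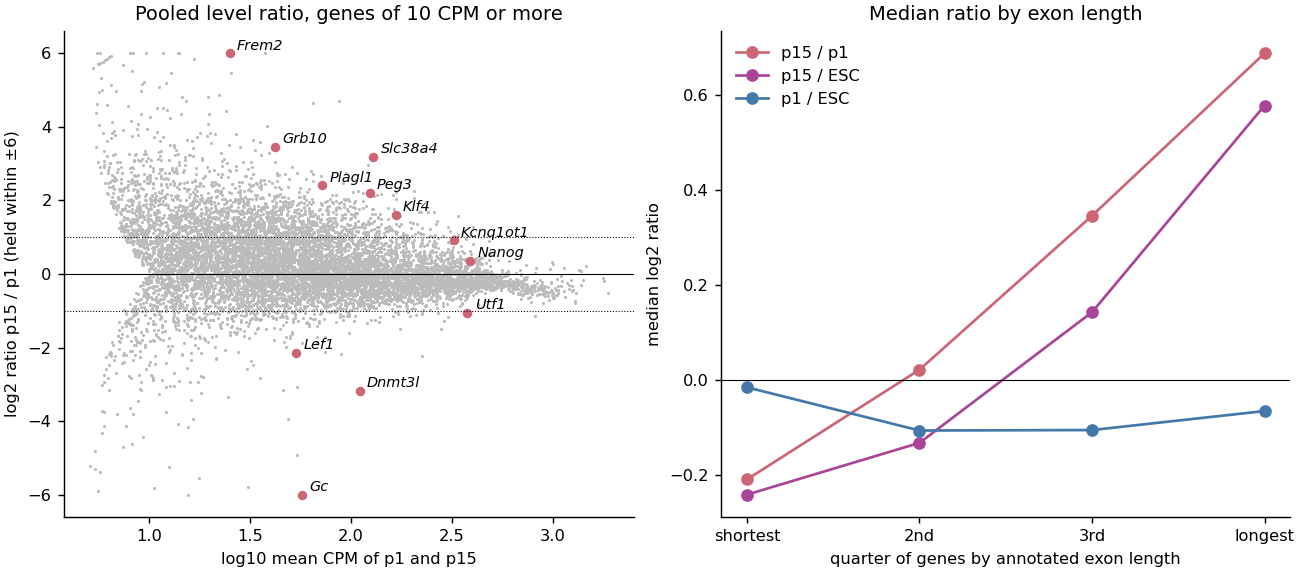
Left, log2 ratio of pooled CPM of p15 over p1 against the log10 mean CPM of both for 9263 genes, with named genes in red and dotted lines at 2-fold. Right, median log2 ratio in 4 equal groups of genes by exon length, where p15 over p1 goes from -0.21 to 0.69, p15 over ESC from -0.24 to 0.58, and p1 over ESC stays between -0.11 and -0.02.

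*Nanog* was at 342 CPM in p1 and 439 CPM in p15, a log2 ratio of 0.36 (0.30 to 0.42), and at 521 CPM in ESCs and 0.41 CPM in day 0 SSCs. Single p1 cells ranged from 115 to 619 CPM with a median of 356, and p15 cells from 256 to 704 with a median of 429. The lowest cells of p1 thus had no counterpart at p15, where 27 of 32 cells were above the p1 median and 10 of 48 p1 cells were below every p15 cell. With DESeq2 size factors the log2 ratio was 0.18.

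Of the core, naive and formative lists, the naive one had the highest median ratio. Of its 16 members at 10 CPM or more, 8 were higher in p15 and none was lower, where 21.7% of all genes were higher and 4.75% lower, and the median log2 ratio was 0.73, against 0.16 over all genes and 0.79 after matching for length and level. *Klf4*, a target of LIF signalling, stood at 82.4 and 252 CPM (1.61; 1.52 to 1.72). *Nr5a2*, which encodes a nuclear receptor that can drive *Pou5f1*, stood at 21.8 and 79.2 CPM (1.86). *Prdm14*, a repressor of differentiation and DNA methylation genes, stood at 25.1 and 85.1 CPM (1.76). The other 5 were *Esrrb* (1.14), *Tfcp2l1* (1.05), *Dppa3* (1.27), *Pecam1* (1.71) and *Tfap2c* (1.17), all log2 ratios. *Dppa3*, which encodes a protein that guards methylation in the zygote, was 0 to 460 CPM in p1 cells with a median of 16.3 and 38.0 to 555 in p15 cells with a median of 238. All 32 p15 cells lay above the p1 median of *Dppa3*, and 28 of 48 p1 cells lay below the lowest p15 cell. For *Esrrb*, too, all 32 p15 cells lay above the p1 median of 116 CPM. Both genes were also above the ESC library, in which *Esrrb* was at 110 CPM and *Dppa3* at 159, against 297 and 213 in p15.

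The core list was divided. Of 15 members, *Fgf4*, the growth factor that primes cells for differentiation, was higher (70.9 and 191 CPM; 1.43), *Utf1*, *Dppa2* and *Dppa4* were lower, and 11 were within 2-fold, where 21.7% of all genes were higher and 4.75% lower, with a median of 0.00 (0.17 after matching). *Utf1*, which encodes a chromatin-bound protein, fell from 511 to 247 CPM and was under the p1 median in 31 of 32 p15 cells. *Dppa2* (233 and 111 CPM) and *Dppa4* (289 and 134 CPM), which form a heterodimer on CpG-rich promoters, had log2 ratios of -1.08 and -1.10, and every p15 cell was under the p1 median of *Dppa4*. In these 3 genes the p15 level was near or under that of ESCs (250, 148 and 185 CPM). *Pou5f1* was at 48.4 and 32.03 CPM (-0.59; -0.79 to -0.41), with 32.6 CPM in ESCs, and *Sox2* at 307 and 473 CPM (0.62), with all 32 p15 cells above the p1 median. Of 9 formative factors, *Foxd3* (1.27) and *Zic5* (1.58) were higher and *Lef1* (-2.14) and *Zic2* (-1.54) lower, with a median of 0.17, or 0.09 after matching. Of all genes 21.7% were higher, which is close to 2 of 9, and 4.75% lower. *Fgf5*, *Otx2* and *Pou3f1*, which mark cells leaving the naive state, were below 10 CPM in both libraries. None of the 17 measured 2-cell-like genes reached 10 CPM, and all 17 together were at 0.21 CPM in p1 and 0.46 CPM in p15.

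**Figure D2:**
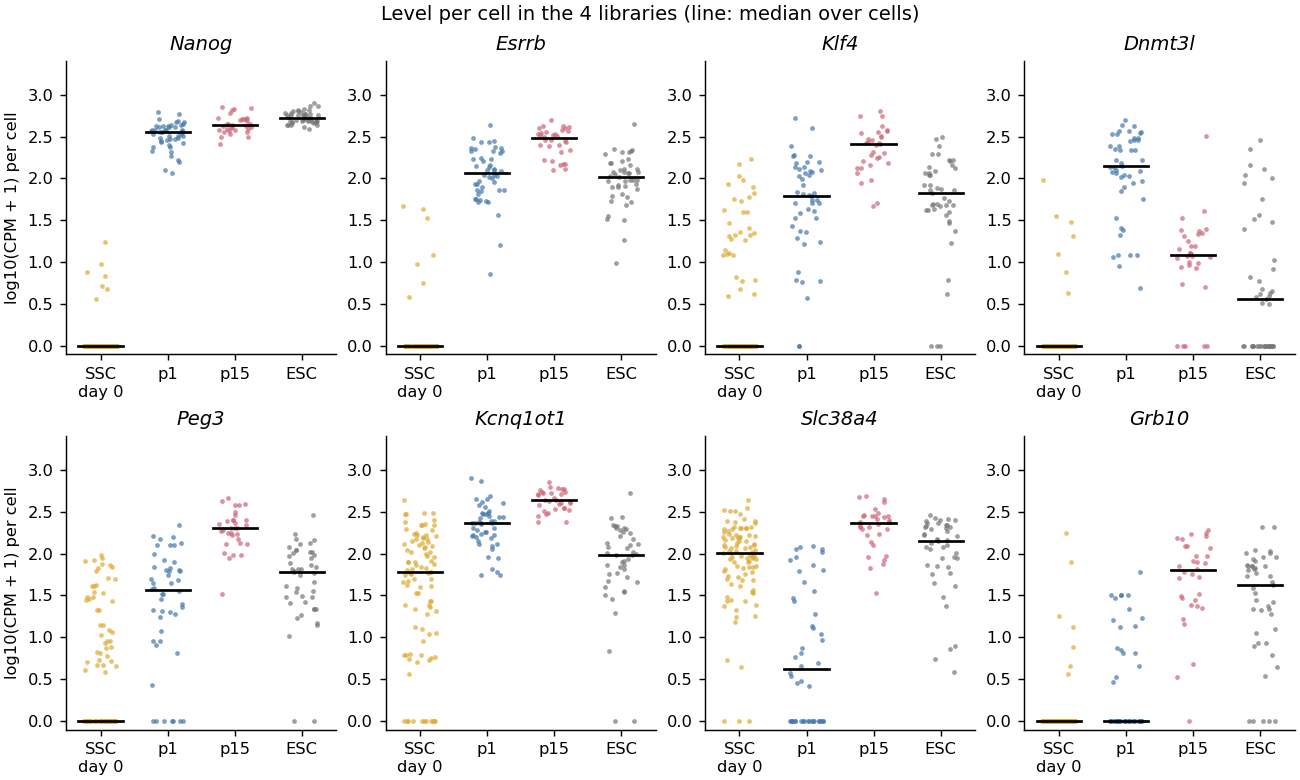
Level of 8 genes in each cell as log10(CPM + 1), for day 0 SSCs (95 cells), gPSC-1 (p1) (48), gPSC-1 (p15) (32) and ESCs (45), with the median over cells as a line. *Nanog* overlaps widely between p1 and p15, whereas 26 of 32 p15 cells lie above every p1 cell for *Slc38a4*.

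*Peg3* was at 44.4 CPM in p1 and 205 CPM in p15, a log2 ratio of 2.204 (2.08 to 2.33), or 4.61-fold. Single p1 cells ranged from 0 to 216 CPM with a median of 35.7 and 7 cells at 0, and p15 cells from 32.2 to 465 with a median of 201. At p15 31 of 32 cells were above the p1 median and 14 above every p1 cell. At 100000 UMIs per cell *Peg3* had a UMI in 31 of 42 p1 cells (73.8%, exact binomial interval 58.0 to 86.1) and in 30 of 30 p15 cells (100%, from 88.4), and without the reduction in 41 of 48 and 32 of 32. Day 0 SSCs and ESCs were lower than p15, at 13.4 and 66.6 CPM.

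*Kcnq1ot1* was at 225 and 423 CPM, a log2 ratio of 0.91 (0.85 to 0.98), which is just under 2-fold. With DESeq2 size factors it was 0.73. Genes with 6956 or more exonic bases had a median log2 ratio of 0.69, and the part of length in the ratio of this long RNA was not tested. Cells spanned 53.7 to 792 CPM in p1 with a median of 231, and 234 to 705 in p15 with a median of 429. All 32 p15 cells were above the p1 median and 27 of 48 p1 cells were under the lowest of them. ESCs were at 116 CPM. *Kcnq1*, in whose intron *Kcnq1ot1* starts on the opposite strand, had 0 UMIs in both libraries. *Cdkn1c* and *Phlda2*, growth-restraining neighbours that *Kcnq1ot1* silences, were at 1.07 and 0.46 CPM, and at 20.0 and 22.6 CPM with 123 CPM in ESCs.

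*Peg3* (chromosome 7, 6703892 to 6730431, minus strand), *Kcnq1ot1* (chromosome 7, 143203458 to 143296549, minus strand) and *Plagl1* (chromosome 10, 13060504 to 13131694, plus strand) are expressed from promoters that carry, or lie beside, methylation of maternal origin (coordinates of GENCODE vM21 on GRCm38). The 250 bases upstream of a RefSeq start of each are shown because CpG dinucleotides are where that methylation sits. They are written 5′ to 3′ on the strand of the gene in the GRCm38.p6 build, with CpG sites in capitals.
Peg3, chr7:6730420-6730669, minus strand: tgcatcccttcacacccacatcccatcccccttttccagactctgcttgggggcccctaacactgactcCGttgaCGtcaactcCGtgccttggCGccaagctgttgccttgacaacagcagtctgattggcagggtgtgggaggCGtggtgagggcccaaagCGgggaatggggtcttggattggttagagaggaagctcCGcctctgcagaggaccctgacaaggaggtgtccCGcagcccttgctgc
Kcnq1ot1, chr7:143296548-143296797, minus strand: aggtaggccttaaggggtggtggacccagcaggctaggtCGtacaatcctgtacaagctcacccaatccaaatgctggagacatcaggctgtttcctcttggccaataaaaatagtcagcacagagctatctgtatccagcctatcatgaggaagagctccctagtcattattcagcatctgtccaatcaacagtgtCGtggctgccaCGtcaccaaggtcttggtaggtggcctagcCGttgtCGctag
Plagl1, chr10:13090582-13090831, plus strand: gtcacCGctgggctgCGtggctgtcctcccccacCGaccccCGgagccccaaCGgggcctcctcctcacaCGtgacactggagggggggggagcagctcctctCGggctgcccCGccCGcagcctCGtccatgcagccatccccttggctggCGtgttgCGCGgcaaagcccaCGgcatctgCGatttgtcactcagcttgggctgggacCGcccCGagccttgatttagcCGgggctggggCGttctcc
The windows of *Peg3*, *Kcnq1ot1* and *Plagl1* held 8, 5 and 19 CpG sites, against a median of 6 over 32851 RefSeq promoter windows of 250 bases, of which 57.0%, 44.4% and 80.3% held fewer. The motif TGCCGC, which ZFP57 is known to bind when methylated, was searched on both strands. It stood once in the window of *Plagl1*, on the reverse strand, and in neither of the others, and 8.7% of all windows held it. Methylation itself was not analysed here.

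Among imprinted genes expressed from the paternal copy, 7 of 14 members at 10 CPM or more were higher in p15, 2 were lower and 5 neither, beside 21.7% higher and 4.75% lower of all genes, with a median log2 ratio of 0.99 against 0.16 over all genes, and 0.42 after matching for length and level. Without the cells above 3.5% of UMIs on chromosome X, described below, it was 0.50. *Slc38a4*, an amino acid transporter, stood at 25.8 CPM in p1 and 233 CPM in p15 (3.18; 3.02 to 3.34), with 116 CPM in day 0 SSCs and 137 CPM in ESCs. At p1 19 of 48 cells had no UMI of *Slc38a4* and the highest had 121 CPM, while p15 cells held 33.2 to 482 CPM. *Plagl1*, a zinc finger regulator of other imprinted genes, stood at 22.8 and 122 CPM (2.41), with 21 of 48 p1 cells at 0 and all 32 p15 cells above the p1 median of 3.39 CPM. *Sgce* (1.59), *Ndn* (1.18) and *Usp29* (1.07) were also higher. *Usp29* starts beside *Peg3* on the opposite strand, and after matching its excess was 0.07. *Dio3*, which inactivates thyroid hormone, had 1 UMI in p1 and 124 in p15, a ratio of 161 (28.3 to 6396). Of these UMIs 62.1% came from 7 cells with a high chromosome X share, and the other 25 were at 5.85 CPM. *Nnat* was the clearest exception at 30.9 and 4.06 CPM (-2.93), followed by *Mest* at 37.9 and 12.7 CPM (-1.58). *Snrpn* (213 and 153 CPM; -0.48) and *Impact* (148 and 160 CPM; 0.11) were within 2-fold. Summed per cell, the list spanned 385 to 1631 CPM in p1 and 1083 to 2046 in p15. All 32 p15 cells were above the p1 median of that sum, and 43 of 48 p1 cells were under every p15 cell.

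Genes expressed from the maternal copy went both ways. *Grb10*, an adaptor that restrains insulin signalling, stood at 7.05 and 77.6 CPM (3.46; 3.16 to 3.78), with 30 of 48 p1 cells at 0 and 1 of 32 p15 cells. *Ube3a*, a ubiquitin ligase that is imprinted in neurons, stood at 63.9 and 185 CPM (1.53). *Meg3*, *Mirg* and *Ascl2* were lower (-1.27, -1.18 and -1.84). These were 2 higher and 3 lower of 8 members, beside 21.7% and 4.75% of all genes, with a median of -0.06, or -0.09 after matching. *Igf2r*, the receptor that clears IGF2, was at 20.6 and 35.2 CPM (0.77), and its antisense repressor *Airn* at 0.78 and 0 CPM. The strand used for counting is not given in the sources used here, so reads of *Kcnq1ot1*, *Usp29*, *Ube3a* and *Igf2r* cannot be kept apart from those of overlapping genes.

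**Figure D3:**
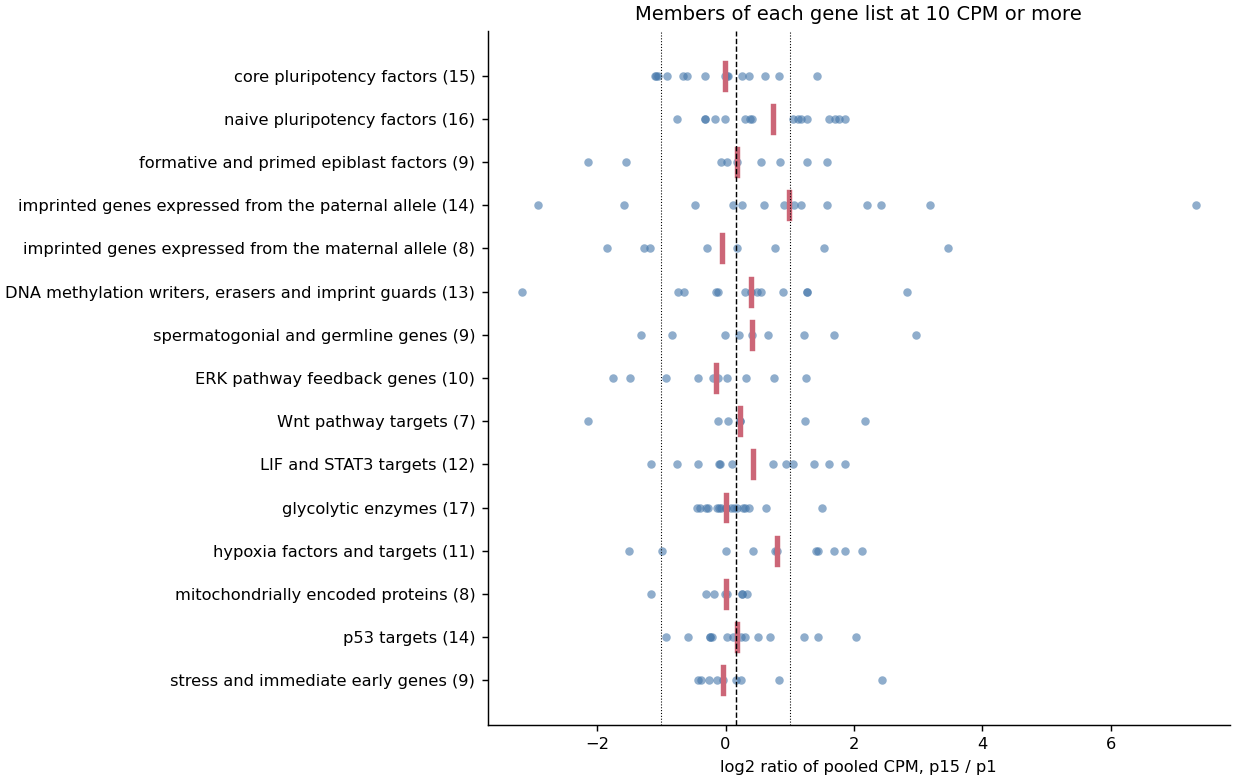
Log2 ratio of pooled CPM of p15 over p1 for each member at 10 CPM or more (points) of the 15 gene lists with at least 7 such members (number in brackets), with the median in red. The dashed line marks 0.16, the median of all genes, and the dotted lines 2-fold. Naive factors, paternally expressed imprinted genes and hypoxia genes have the highest medians, at 0.73, 0.99 and 0.81.

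Among 13 genes that write, erase or guard DNA methylation, *Dnmt3l* was lower, *Tet2*, *Tet3* and *Dppa3* higher and 9 within 2-fold, with a median of 0.39, or 0.27 after matching. That 3 of 13 is close to the 21.7% of all genes. *Dnmt3l*, which has no catalytic activity and stimulates the de novo enzymes, was at 199 CPM in p1 and 22.1 CPM in p15 (-3.18; -3.37 to -2.99), with 41.9 CPM in ESCs and 2.78 CPM in day 0 SSCs. Every p1 cell had a UMI of it, from 3.89 to 503 CPM with a median of 138. Of 32 p15 cells, 31 were under that median, and 1 cell at 316 CPM held 39.7% of the library's *Dnmt3l* UMIs. *Dnmt3b*, a de novo enzyme, was at 165 and 106 CPM (-0.65), and *Dnmt3a* at 50.7 and 46.7 CPM (-0.12). The maintenance genes were within 2-fold as well, *Dnmt1* at 155 and 218 CPM (0.49) and *Uhrf1* at 290 and 360 CPM (0.31). *Tet2* and *Tet3*, which oxidise methylcytosine, had log2 ratios of 1.26 and 2.83, *Tet3* starting from 3.70 CPM. *Zfp57*, which protects imprints from erasure, was at 333 and 199 CPM (-0.74), and all 32 p15 cells were under its p1 median of 339 CPM.

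Targets of the 3 signals that 2iL sets did not move as blocks. For LIF and STAT3, 4 of 12 genes were higher, among them *Klf4* and *Tfcp2l1* of the naive list, and 1 lower, beside 21.7% higher and 4.75% lower of all genes. The median of 0.42 became 0.20 after matching. *Bcl3*, a nuclear cofactor of NF-kappaB, stood at 33.8 and 123 CPM (1.86), and *Il6st*, the shared LIF receptor chain, at 31.5 and 81.8 CPM (1.38). *Socs3*, the feedback inhibitor of that receptor, was lower, at 122 and 54.7 CPM (-1.16). The summed list was above the p1 median in all 32 p15 cells, with 1255 to 2401 CPM against 538 to 1902. For ERK feedback, 1 of 10 genes was higher, *Spred2* (1.25), and 2 were lower, *Dusp6* (51.0 and 18.3 CPM; -1.48), a phosphatase of ERK, and *Myc* (77.5 and 23.1 CPM; -1.75). These counts stand beside the same 21.7% higher and 4.75% lower of all genes. The median of the ERK list was -0.16, or -0.74 after matching. For Wnt, *Tcf7* (14.3 and 64.4 CPM; 2.18) and *Notum* (1.23) were higher and *Lef1* (87.4 and 19.8 CPM) lower among 7 genes, with a median of 0.22, or 0.45 after matching. That is 2 higher and 1 lower of 7, beside 21.7% and 4.75% of all genes. *Tcf7* and *Lef1* encode related partners of beta-catenin, and 30 of 32 p15 cells were above the p1 median of *Tcf7* while 29 were under that of *Lef1*.

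Of 11 genes of the hypoxia response, 5 were higher and *Bnip3* lower (22.1 and 7.75 CPM; -1.51), beside 21.7% higher and 4.75% lower of all genes, with a median of 0.81, or 0.73 after matching. *Epas1*, which encodes HIF-2alpha, stood at 33.1 and 90.1 CPM (1.44). *Vegfa* (4.35 and 15.9 CPM), *P4ha1* (5.20 and 22.6 CPM), *Egln1* (8.62 and 22.9 CPM) and *Ddit4* (11.5 and 36.8 CPM) started from low levels. The sum of the list was above the p1 median in 31 of 32 p15 cells. Of 17 glycolytic enzymes 1 was higher, beside 21.7% of all genes, and 16 were within 2-fold. Their median was 0.01, or 0.05 after matching. The exception was *Hk1*, at 31.8 and 90.6 CPM (1.51), while *Gapdh*, *Eno1* and *Pkm* had ratios of -0.45, -0.40 and -0.31. Of 14 p53 targets, *Trp53inp1* (2.04), *Zmat3* (1.44) and *Eda2r* (1.23) were higher, and *Cdkn1a* (0.30) and *Mdm2* (0.02) were not, with a median of 0.18, or 0.34 after matching. That 3 of 14 is close to the 21.7% of all genes. All 32 p15 cells were above the p1 median of *Trp53inp1*. Of 9 stress and immediate early genes 1 was higher, *Chac1* (2.44), beside 21.7% of all genes, with a median of -0.04, or 0.23 after matching. Among 8 mitochondrially encoded genes, *mt-Nd3* was lower (421 and 188 CPM; -1.16) and the others within 2-fold, beside 4.75% lower of all genes. Their median was 0.00, or 0.28 after matching.

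The summed level of the germline genes stayed far under that of day 0, but not every member did. The 26 measured genes together were at 452 CPM in p1 and 543 CPM in p15, against 6597 CPM in day 0 SSCs and 598 CPM in ESCs. Of 9 at 10 CPM or more, *Kit* (1.68), *Tex14* (2.96) and *Nanos3* (1.22) were higher and *Sycp1* lower (-1.32), beside 21.7% higher and 4.75% lower of all genes, with a median of 0.41, or 0.38 after matching. *Kit* encodes a receptor that naive pluripotent cells also carry, and stood at 90.6 CPM in ESCs against 98.2 CPM in p15. *Ddx4*, an RNA helicase of germ cells, was at 2.56 and 0.83 CPM against 470 CPM at day 0, and at 100000 UMIs it was seen in 7 of 42 p1 cells and 0 of 30 p15 cells, where 0 allows up to 11.6% of cells with a UMI at that depth (exact binomial). Unreduced, 10 of 48 and 9 of 32 cells had a UMI of it, so the 0 does not bound the cells that express *Ddx4*. *Zbtb16* had 38 UMIs in 3 p1 cells and 1 UMI in p15.

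Few markers of other lineages reached 10 CPM. *Lama1* (5.41 and 65.6 CPM; 3.60; 12.1-fold) and *Sparc* (338 and 627 CPM; 0.89) were the 2 of 12 primitive endoderm genes at 10 CPM or more, and both encode basement membrane or matrix proteins. The defining factors of that lineage were near 0, *Gata6* at 0.9975 and 0.55 CPM, *Sox17* at 0 and 0.18 CPM and *Dab2* at 0 and 0.09 CPM, and all 31 UMIs of *Gata4* in p15 came from 1 cell at 125 CPM. *Tfap2a* (2.08), *Gsc* (1.97) and *Nes* (1.13) were the higher genes of the trophoblast, mesendoderm and neural lists, with 1, 1 and 3 members at 10 CPM or more, beside 21.7% higher and 4.75% lower of all genes. In the neural list *Tubb3* went the other way, at -0.52, with 24 of 32 p15 cells under its p1 median. The median of that list was 0.28, or -0.35 after matching. Summed over all members per cell, 31, 28 and 27 of 32 p15 cells were above the p1 median for the primitive endoderm, trophoblast and mesendoderm lists, and 23, 4 and 6 above every p1 cell. The medians of these sums were 361 and 727 CPM, 2.81 and 27.6 CPM, and 0 and 13.8 CPM in p1 and p15. In ESCs the medians were 624, 26.5 and 29.5 CPM. Most of the primitive endoderm sum was *Sparc*, as the pooled list was at 349 and 708 CPM in p1 and p15. For the neural list, 17 of 32 p15 cells were above the p1 median and 0 above every p1 cell. Its medians were 80.4 and 88.2 CPM. *Eomes* (0.93 and 9.97 CPM), *Otx2* (1.71 and 9.88 CPM) and *Stra8* (0 and 4.15 CPM) stayed below 10 CPM. 1 p15 cell held 82.2% of the UMIs of *Stra8* at 91.2 CPM, with *Eomes* at 81.3 CPM, and another held *Otx2* at 113 CPM and *Pou3f1* at 87.2 CPM. For *Eomes*, *Otx2*, *Pou3f1*, *Tfap2a* and *Gsc* the top p15 cell held 44.4, 36.4, 44.8, 31.4 and 27.3% of the UMIs. *Nanog* was at 367 and 529 CPM in the *Stra8* and *Otx2* cells.

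The 12 largest ratios in each direction, among genes with at least 20 CPM and UMIs in at least 50% of the cells of the higher library, were led by genes close to absent in the other library. *Tyr*, the tyrosinase of pigment cells, had 0 UMIs in p1 and 305 in p15, at least 132-fold higher against a limit of 3 UMIs over the p1 library. One p15 cell at 623 CPM held 79.0% of these UMIs, and the median over p15 cells was 4.73 CPM. *Ctf2*, a cytokine of the LIF family, had 0 and 302 UMIs, at least 130-fold higher, with 31.8% of its UMIs in 1 cell. *Frem2*, an extracellular matrix protein, was spread more evenly, at 0.50 and 49.8 CPM (6.64; 5.59 to 7.96) with UMIs in 5 of 48 and 30 of 32 cells. *Podxl*, a sialomucin of the surface of pluripotent cells, had 3 and 253 UMIs, a ratio of 109 (37.0 to 533). The others were *Gm364*, *Lrig3*, *Ttbk2*, *Lrrc15*, *Ank*, *Vav2*, *C130074G19Rik* and *March9*, with log2 ratios of 4.82 to 6.32. Of the *Gm364* UMIs of p15, 91.9% came from 7 cells with a high share of UMIs on chromosome X, described below, and the other 25 cells pooled were at 8.10 CPM against 0.93 CPM in p1. Genes of which 1 cell held at least 50 UMIs and at least 50% of all UMIs (66 genes in p15, 132 in p1) had a UMI in a median of 35.5% of the other p15 cells, against 14.9% in p1 and 18.2% in ESCs. The part of that difference in these ratios was not tested. Setting values under 10 CPM in a cell to 0 left 1996 genes higher and 528 lower.

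*Gc*, which encodes the vitamin D binding protein, led the lower genes with 1615 UMIs in p1 (115 CPM) and 1 in p15, where 31 of 32 cells were at 0. In p1 40 of 48 cells carried it, up to 486 CPM, and in ESCs 41 of 45. *Dancr*, a long non-coding RNA, had 437 and 2 UMIs. *Akr1b8*, an aldose reductase, stood at 106 and 3.51 CPM, with UMIs in 45 of 48 and 13 of 32 cells. *Zfy1*, a zinc finger gene of chromosome Y, was at 61.2 and 1.11 CPM (-5.79), at 0 in the ESC library and at 14.6 CPM in day 0 SSCs. *Slc1a3*, *Nt5e*, *Tchh*, *4930486L24Rik*, *Platr5*, *Aass*, *Cers4* and *Tspan2os* made up the rest, at log2 ratios of -5.55 to -3.35. *Platr5*, *Aass* and *Tspan2os* were also low in ESCs, at 9.72, 0.07 and 0 CPM, against 91.7, 30.99 and 45.1 in p1.

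The 318 genes of chromosome X had a median log2 ratio of 0.47 with 29.6% higher, while the autosomes had medians of 0.04 to 0.31 with 18.6 to 26.9% higher (21.7% of all genes). Without the cells above 3.5% of UMIs on X, described next, the X median was 0.22 and the autosomes lay between 0.04 and 0.27, with chromosomes 1 and 9 above X. Leaving out cells by their X share lowers the X median by construction. With all cells and after matching for length and level, the X median was 0.28 and the autosomes lay between -0.13 and 0.06. The 4 Y genes at 10 CPM or more had a median of -0.61, or -0.84 after matching, and -0.39 without the cells above 3.5%. Outside those cells, *Ddx3y*, *Eif2s3y*, *Uty* and *Kdm5d* together had a median over cells of 189 CPM in p1 and 98.7 CPM in p15. Per cell, 25 of 32 p15 cells had 2.71 to 3.29% of their UMIs on X genes and 7 had 4.02 to 4.78%, with no cell between. In p1 45 of 48 cells had 2.53 to 3.34%, and 3 had 3.79, 3.99 and 4.46%. The 7 cells were set apart from the data after these values were seen, and they are described, not tested. Against the other 25, their median log2 ratio was 0.69 on X, which the choice of the cells by X share sets, -1.38 over 4 Y genes, and -0.06 to 0.08 on each autosome. *Eif2s3y*, a Y-linked translation factor gene, was at 0 to 10.96 CPM in the 7 and 0 to 219 CPM with a median of 49.3 in the other 25. Other Y genes were less uniform, with *Ddx3y* at 0 to 102 CPM in the 7 (32.1 CPM pooled) and 0 to 324 CPM in the 25 (49.3 CPM pooled), and *Zfy1* at 0 to 5.81 and 0 to 4.57 CPM. *Xist*, the RNA that silences an X chromosome, did not separate them, at 4.39 to 221 and 0 to 217 CPM. *Nanog* (375 to 661 and 256 to 704 CPM), *Peg3* (94.3 to 387 and 32.2 to 465 CPM) and *Kcnq1ot1* (236 to 567 and 234 to 705 CPM) overlapped. Depth did not divide them either, at 137628 to 597574 and 20268 to 576416 UMIs per cell.

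**Figure D4:**
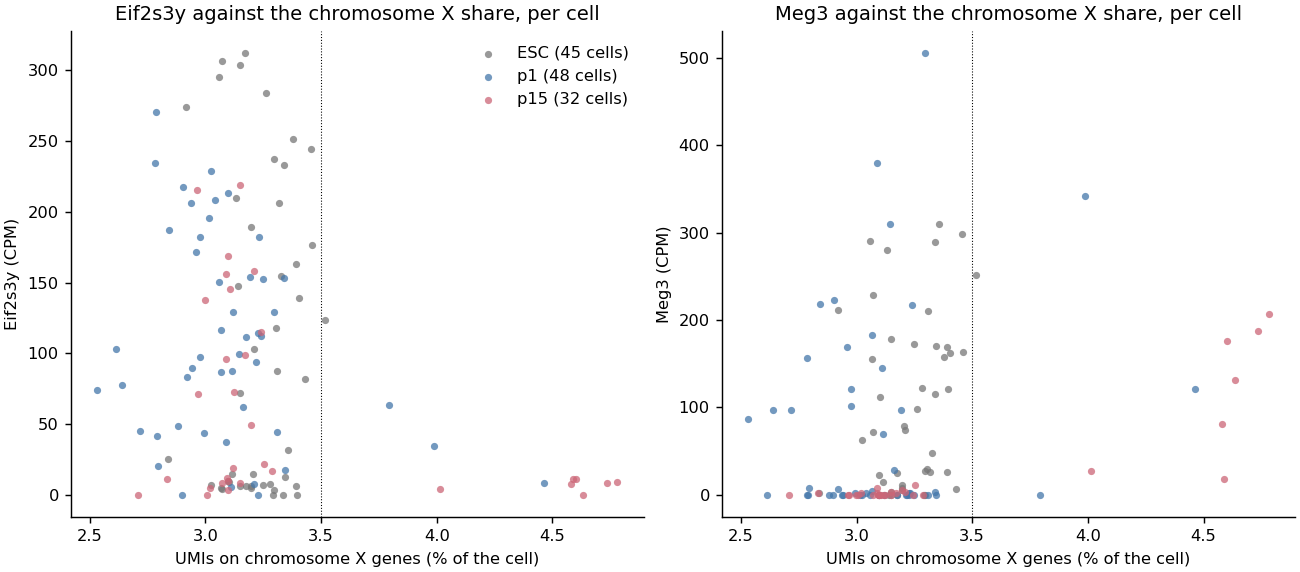
*Eif2s3y* (left) and *Meg3* (right) in CPM against the percent of a cell's UMIs on chromosome X genes, 1 point per cell of ESC (45), p1 (48) and p15 (32), with a dotted line at 3.5%. The 7 p15 cells right of the line have at most 10.96 CPM of *Eif2s3y* and at least 17.5 CPM of *Meg3*. The other 25 have 0 to 219 CPM of *Eif2s3y*, which overlaps with the 7, and at most 10.9 CPM of *Meg3*.

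Only 4 of the 9263 genes were higher in each of the 7 cells than in each of the 25, and none was lower in that way. *Gm364* (188 to 348 against 0 to 38.3 CPM), *1700013H16Rik* (246 to 538 against 7.08 to 65.0 CPM) and *Sms*, which encodes spermine synthase (340 to 492 against 0 to 312 CPM), lie on X, the chromosome by which the cells were chosen. The fourth was *Meg3* on chromosome 12, the long non-coding RNA expressed from the maternal copy of the *Dlk1*-*Dio3* domain. It was at 17.5, 26.6, 80.3, 131, 176, 187 and 206 CPM in the 7 cells and at 0 to 10.9 CPM in the 25, of which 16 were at 0. The 7 cells thus held 320 of 331 *Meg3* UMIs of p15 (96.7%), with 25.9% of all UMIs of the library. *Mirg*, from the same transcribed stretch, followed *Meg3*, with 97 of 105 UMIs (92.4%) in the 7 cells. *Dio3*, at the far end of the domain and expressed from the other copy, had 77 of 124 UMIs (62.1%) there. *Rtl1*, also paternal, had 44 and 1 UMIs in p1 and p15, and *Dlk1* 2 and 38.

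In p1 *Meg3* was mixed as well, with 20 of 48 cells at 0 and the others reaching 505 CPM, and 2 of the 3 p1 cells with a high X share carried it, at 121 and 342 CPM. In ESCs 40 of 45 cells had a UMI of it, with a median of 78.3 CPM. At 100000 UMIs per cell *Meg3* was seen in 20 of 42 p1 cells (47.6%), 9 of 30 p15 cells (exact binomial interval 14.7 to 49.4%) and 36 of 42 ESCs (85.7%). Without the cells above 3.5% in both libraries the log2 ratio of *Meg3* was -5.70 in place of -1.27 and that of *Mirg* -4.29 in place of -1.18. That of *Dazl*, a germ cell RNA-binding protein gene, was -0.82 in place of 0.41. *Peg3* (2.14), *Kcnq1ot1* (0.95) and *Nanog* (0.30) moved little. The share of UMIs on an autosome was under 0.8 of the library median in 1 p15 cell of at least 100000 UMIs (chromosome 19 at 0.70) and in 3 p1 cells (chromosomes 2, 4 and 9 at 0.78, 0.68 and 0.68).

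Against ESCs, which share the p15 and p1 libraries with the comparison above and carry another batch label, 1971 of 9429 genes (20.9%) were at least 2-fold higher in p15 and 709 (7.52%) lower. For p1 624 of 8961 genes (6.96%) were higher and 907 (10.1%) lower. Several p15 levels passed from under the ESC level at p1 to over it, as for *Peg3* (44.4, 205 and 66.6 CPM in p1, p15 and ESCs), *Slc38a4* (25.8, 233 and 137 CPM), *Plagl1* (22.8, 122 and 42.5 CPM) and *Klf4* (82.4, 252 and 89.8 CPM). *Kcnq1ot1* was above the ESC level at both passages.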

How the data were processed

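Single cells were profiled by modified STRT-seq, a plate-based method with cell barcodes and UMIs. What the authors deposited are raw UMI counts, with genes in rows and cells in columns. Per the paper's methods, barcodes and UMIs were extracted with UMI-tools, reads were aligned to mm10 with STAR (2.7.2b) and assigned to genes with featureCounts (2.0.0), and cells with few genes or many mitochondrial UMIs were removed. Colonies were picked and cells collected by mouth pipette. Treatment of doublets is not given in the sources used here, and none were removed.

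UMIs of 28692 genes were summed over the cells of each library and scaled to CPM. Genes with at least 10 CPM in 1 of the 2 libraries were compared and a 2-fold limit was applied. Intervals are exact at 95% (Poisson for levels, conditional binomial for ratios, Clopper-Pearson for shares), and a count of 0 was set to 3 for ratios. With 1 library per passage no test was possible. The ESC and day 0 levels use the cells of the deposited annotation. The 32 barcode numbers of p15 also occur in p1, as plates reuse them. Exon lengths were found for 99.5% of the compared genes. Scripts used Python 3.11.15, numpy 2.4.6, pandas 2.3.3, scipy 1.17.1 and R 4.3.3 and were tested on simulated data. edgeR 4.0.16 and DESeq2 1.42.0 gave scaling factors only.

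Genes named were the label genes *Nanog*, *Peg3* and *Kcnq1ot1*, those the study names for gPSC passages, the 12 largest ratios each way with at least 20 CPM, and up to 6 members of each list. Other list members and the genes of the 7 cells with a high X share were named after their values were seen. Genes and lists were chosen with earlier results of these data known. Alternatives were other scalings, floors, fold limits and cell weights.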

Additional observations from a re-analysis of the deposited data

How the results depend on the processing

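For the counts of higher and lower genes and the medians of naive factors, paternally expressed imprinted genes and chromosome X, 48 values under the alternatives were close to those reported and 21 moved. A reversal was marked only for ratios past 2-fold, so none of these values could be marked as one. The median of all genes did change sign, from 0.16 to -0.01 with TMM and -0.04 with DESeq2 factors. Under at least 1 alternative so did the medians of the core, formative, maternally expressed imprinted, germline, ERK, glycolytic, mitochondrial, p53, stress and neural lists and of most autosomes, so no direction is drawn from them. Higher and lower genes numbered 784 and 128 with a floor of 50 CPM, 4053 and 1894 with no floor, and 3160 and 1154 at 1.5-fold. Lower genes numbered 680 with TMM and 717 with DESeq2 factors. Set against genes of the same length and level, a choice made after seeing the data, 1125 were higher and 796 lower. The naive median of 0.73 became 0.57 with TMM, 0.55 with DESeq2 factors, 0.97 from medians over cells and 0.62 without the cells above 3.5% of UMIs on X, the last also chosen after seeing the data. The median of paternally expressed imprinted genes became 0.42 after matching and 0.50 without those cells. The X median of 0.47 became 0.27 (TMM), 0.24 (DESeq2), 0.21 (50 CPM), 0.28 (matched) and 0.22 (without those cells). The cause was not tested beyond what each setting changes by construction. Of 83 named genes past 2-fold, 854 values under the alternatives gave 0 reversals, and 29 values in 17 genes were under 2-fold. Keeping only annotated cells changed nothing, since all 80 were annotated. No paired analysis was possible because each passage has 1 library. Replication is absent, so these data limit every ratio to the 2 libraries, and depth limits genes under about 10 CPM.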
